A study of Mus musculus with 6 samples.

Results

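The platelet-derived growth factor (PDGF) family was described here as 6 genes of 18560 measured: the ligands Pdgfa, Pdgfb, Pdgfc and Pdgfd and the receptors Pdgfra and Pdgfrb. The genes were taken by name, not by any measured value, though earlier results of these data were known. Their unique molecular identifiers (UMIs, each standing for 1 captured RNA molecule) were counted over the 38 deposited clusters of 51426 cells from adult mouse olfactory bulb. In all, these cells held 4196 UMIs of Pdgfa, 1490 of Pdgfb, 1005 of Pdgfc, 779 of Pdgfd, 1309 of Pdgfra and 3272 of Pdgfrb.

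The mice were C57BL/6NJ, 14 weeks old at collection. Control mice had no manipulation per the labels. Naris occlusion was unilateral, and the study gives the occluded side as the sample deprived of odour input. Olfactory trained mice were enriched through an odour discrimination task. Occlusion and training each lasted 6 weeks. The trained mice worked for water under water deprivation, so training and water deprivation cannot be told apart. The study's text describes its reference tissue both as naive mice and as the open side of occluded mice. Each condition had 2 libraries, each a pool of 3 mice, and replicate 1 of each condition was a male pool and replicate 2 a female pool. All mice were perfused, the bulbs were dissociated with papain, and the dissection took in some olfactory epithelium. Xist and Ddx3y counts fitted the sexes in all 6 libraries. The p-values below therefore measure the spread between pools of mice, with 2 pools a condition. These 2 pools differed in sex, so the spread includes any difference between the sexes. The main tests fitted condition alone, without the replicate number.

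Libraries held between 6705 and 10570 annotated cells and between 11841160 and 17065083 UMIs; median UMIs per cell ran from 1028 to 1724 and median mitochondrial shares from 9.25% to 14.4%, with the lowest depth and the highest mitochondrial share both in olfactory trained replicate 1. Of 49931 distinct cell barcodes 1461 occurred in more than 1 library, 65 to 144 for each pair of libraries. Cluster names follow the deposited annotation (EC, endothelial; Mural, pericytes and smooth muscle; Mes, mesenchymal; Astro, astrocytes; OPC, oligodendrocyte precursors; MyOligo, myelinating oligodendrocytes; OEC, olfactory ensheathing cells; MicroG, microglia; Mf, macrophages; Mono, monocytes; RBCs, red blood cells; N, neurons). Numbers in these names are not always those of the study's figures. By their numbers of cells, N11 (951), Mes1 (653), Astro2 (336), MicroG1 (790) and OEC2 to OEC5 carry other numbers there. The names were set against marker lists. All 6 EC markers peaked in EC1, all 7 pericyte and all 4 smooth muscle markers in Mural2, all 6 oligodendrocyte markers in MyOligo, all 7 fibroblast markers in Mes1, and 6 of 7 OPC markers in OPC. The exception of the OPC list was Cspg4 (NG2), which pericytes are also known to carry and which peaked in Mural2. OEC markers were less well separated: 3 of 6 peaked in OEC4 and 1 each in OEC1, MyOligo and OPC.

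PDGF ligands are secreted dimers, and their receptors are tyrosine kinases that pair when a dimer binds. PDGF-A and PDGF-C act through the alpha receptor, PDGF-D mainly through the beta receptor, and PDGF-B through both. PDGF-C and PDGF-D are released in a latent form and must be cut by proteases, among them tissue plasminogen activator for PDGF-C. In the brain, endothelial PDGF-B holds pericytes to capillaries through the beta receptor, and PDGF-A drives the proliferation of oligodendrocyte precursors through the alpha receptor.

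The genes lie apart in the mouse genome (RefSeq, GRCm38.p6, the mm10 build of the files), with only Pdgfa and Pdgfra on the same chromosome: Pdgfa on chromosome 5 (chr5:138976014-139000792), Pdgfra on chromosome 5 (chr5:75151322-75198206), Pdgfb on chromosome 15 (chr15:79995865-80024614), Pdgfc on chromosome 3 (chr3:81036416-81214040) and Pdgfd on chromosome 9 (chr9:6168363-6534284). 

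RefSeq sequence before an annotated start was at hand for 4 of the 6 genes. The 250 bases before a RefSeq start are shown for Pdgfa and Pdgfra, the members at 10 UMIs per 1000000 or more in the most and in the fewest clusters, and for Pdgfd, written 5′ to 3′ on the strand of the gene with CpG pairs in capitals.
Pdgfa (chr5:138994945-138995194, minus strand): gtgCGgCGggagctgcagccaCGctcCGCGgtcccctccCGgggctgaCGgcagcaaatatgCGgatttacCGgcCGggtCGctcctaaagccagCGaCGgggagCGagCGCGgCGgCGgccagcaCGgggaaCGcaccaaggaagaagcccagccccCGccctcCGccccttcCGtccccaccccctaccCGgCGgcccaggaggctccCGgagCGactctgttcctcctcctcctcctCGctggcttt
Pdgfra (chr5:75152001-75152250, plus strand): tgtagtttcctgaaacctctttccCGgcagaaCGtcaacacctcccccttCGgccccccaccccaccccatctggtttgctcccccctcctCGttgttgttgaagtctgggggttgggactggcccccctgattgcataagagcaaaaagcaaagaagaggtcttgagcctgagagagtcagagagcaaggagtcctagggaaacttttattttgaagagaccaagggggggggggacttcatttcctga
Pdgfd (chr9:6168236-6168485, plus strand): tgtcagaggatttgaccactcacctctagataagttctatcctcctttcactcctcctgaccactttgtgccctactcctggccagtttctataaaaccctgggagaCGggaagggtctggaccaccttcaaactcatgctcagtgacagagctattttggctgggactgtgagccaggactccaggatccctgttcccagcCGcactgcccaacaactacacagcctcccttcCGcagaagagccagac
The Pdgfa window held 28 CpG pairs, a number reached by 7.6% of 32851 such windows, and the window before another RefSeq start (chr5:138994282-138994531) held 19. Both Pdgfa windows and that of Pdgfra lie inside the spans given above, so they do not precede the outermost annotated ends of these genes, and the Pdgfd window lies partly inside its span. Pdgfra held 4 CpG pairs, Pdgfd 3 and Pdgfc (chr3:81036166-81036415) 3, below the median of 6 over all windows. The letters TATAAA, on either strand, occurred in the Pdgfd window alone of these 5, against 12.4% of all windows.

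Pdgfa passed a low level in most clusters and Pdgfra in few. Levels are given in CPM, UMIs of a gene per 1000000 UMIs of a cluster in a library, mean ± SD over 6 libraries. Pdgfa reached at least 10 CPM in 35 of 38 clusters, Pdgfrb in 14, Pdgfb in 13, Pdgfc in 12, Pdgfd in 8 and Pdgfra in 4. This count holds for that level alone: Pdgfd was at 0 in 5 clusters, Pdgfb and Pdgfra in 2 each, Pdgfc in 1, and Pdgfa and Pdgfrb in 0. Levels were not tested between clusters, since the clusters were made from expression in these same cells. Neighbouring clusters in the order of levels were called different when their mean difference over libraries was larger than its SD.

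**Figure D1:**
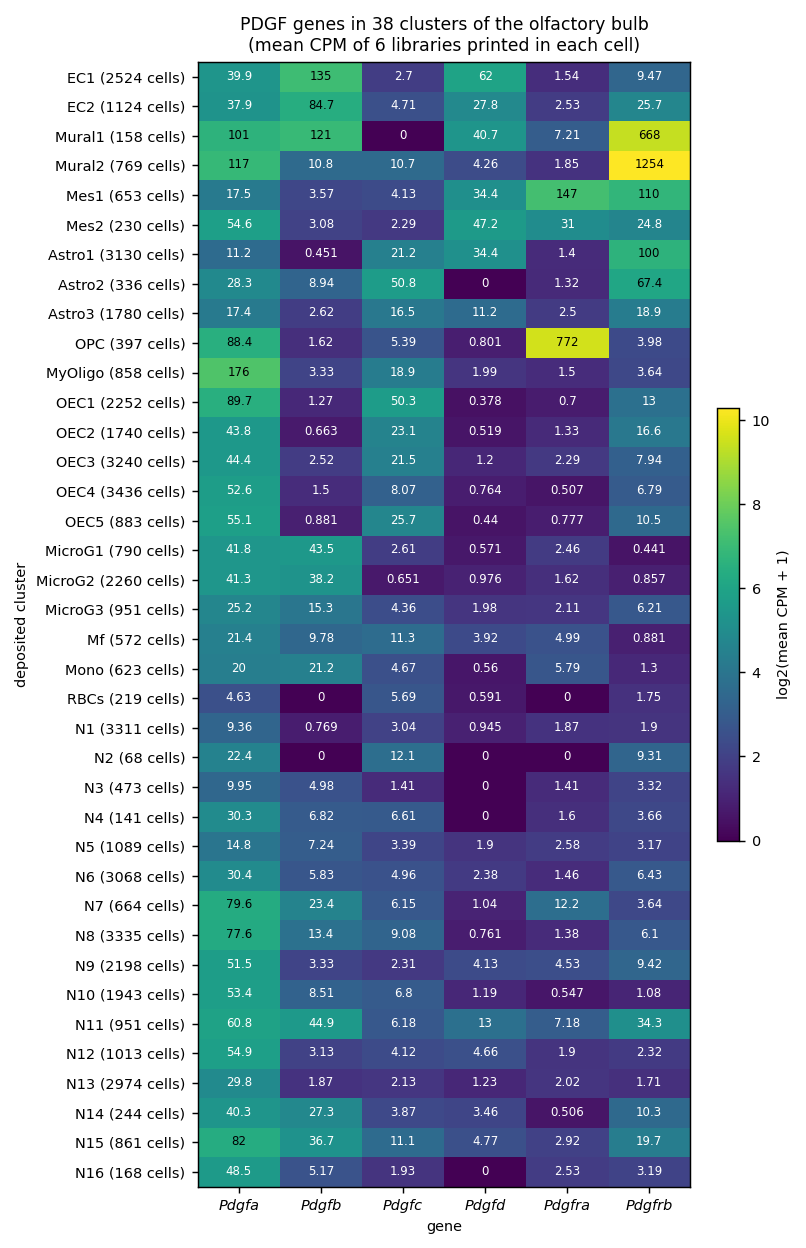
Mean CPM over 6 libraries of each PDGF gene (columns) in each of the 38 deposited clusters (rows, with their numbers of cells); colour is log2(mean CPM + 1). Pdgfra stands out in OPC (772) and Mes1 (147) and Pdgfrb in Mural2 (1254) and Mural1 (668), whereas Pdgfa is at 10 CPM or more in 35 rows.

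Among the ligands, Pdgfa was highest in myelinating oligodendrocytes. MyOligo had 176 ± 10.3 CPM, from 159 in control replicate 1 to 191 in olfactory trained replicate 1, was the highest cluster in 5 of 6 libraries and stood above Mural2, the next by mean, in 6 of 6. Mural2 (117 ± 13.5), Mural1 (101 ± 36.4), OEC1 (89.7 ± 9.66), OPC (88.4 ± 53.8), N15 (82.0 ± 18.2), N7 (79.6 ± 49.4) and N8 (77.6 ± 12.7) followed, and no neighbours among these 7 differed beyond their spread. The share of MyOligo cells with a Pdgfa UMI was 36.7% (95% Wilson interval 33.6 to 40.0%), at a median of 3322 UMIs per cell. Among cells of at least 1000 UMIs the highest mean was in N7 instead (184 CPM). N7 had 664 cells at a median of 687 UMIs, below that limit, and 36 of all its cells held a Pdgfa UMI. With every cell thinned to 500 UMIs the MyOligo share was 7.65%, against 4.38% in Mural2 and 4.16% in OEC1. Red blood cells, which lack nuclei, served as a background for free RNA: 3 of 219 held a Pdgfa UMI (1.37%, interval 0.467 to 3.95%, median 3894 UMIs, 0.146% after thinning). All intervals cover counting error only.

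Because MyOligo was a small cluster, most Pdgfa UMIs lay elsewhere. Neurons held 31.2 ± 5.21% of them and ensheathing cells 30.9 ± 3.58%, with MyOligo at 12.5 ± 2.34%. Among neurons of the deposited second annotation the Pdgfa level was 103 ± 54.2 CPM in n18-EPL-IN (161 cells, 19 UMIs), 76.9 ± 13.3 in the granule cell cluster n07-GC-2 (3608 cells, 271 UMIs) and 68.7 ± 16.2 in n17-M/TC-3, a mitral and tufted cell cluster (927 cells, 100 UMIs). The ranges over libraries of these 3 overlapped.

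Pdgfb had its highest mean in the endothelial cluster EC1 and was also found in microglia and neurons. EC1 had 135 ± 25.9 CPM, the highest in 4 of 6 libraries, and EC2 84.7 ± 30.4. In EC1 the libraries gave 140 and 116 (control), 119 and 130 (naris occluded) and 120 and 185 (olfactory trained). MicroG1 had 43.5 ± 12.7 and MicroG2 38.2 ± 5.95. MicroG3, with a median of 748 UMIs per cell, ran from 0 to 40.3 CPM over the libraries. The microglial level stood apart from endothelial markers: MicroG2 had 24.8 Pdgfb UMIs per 100 UMIs of the EC marker list against 0.748 in EC1, and its 1730 cells without any EC list UMI still had 38.7 ± 9.03 CPM. A Pdgfb UMI was found in 20.2% of EC1 cells (18.7 to 21.8%, median 1621 UMIs) and 7.26% of MicroG2 cells (6.26 to 8.40%, median 1847 UMIs), which became 6.69% and 1.95% at 500 UMIs. In 0 of 219 red blood cells was one found, which allows a share of up to 1.37%.

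Pdgfb in Mural1 came with endothelial markers. Mural1 had 121 ± 33.0 CPM, differed from EC1 by less than the spread (higher in EC1 in 4 of 6 libraries) and was above EC2 in 6 of 6. All 158 Mural1 cells held EC list UMIs, with a median of 36 per cell against 30 in EC1. The 6 markers summed to between 9456 and 11574 CPM over the libraries, and the ratio of Pdgfb to EC list UMIs was 1.15 per 100, near the 0.748 and 1.005 of EC1 and EC2. Mural1 cells had a median of 3508 UMIs, Mural2 cells 1349. In Mural2, where 31.9% of cells held an EC list UMI, Pdgfb was at 10.8 CPM (12 UMIs). What part endothelial RNA had in the Mural1 level was not tested, since no Mural1 cell lacked it.

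Among neurons, Pdgfb was also found in N15. N15, of which 90.1% were n17-M/TC-3 cells, had 36.7 ± 13.9 CPM and its 679 cells without an EC list UMI had 30.8 ± 12.6. In the second annotation n17-M/TC-3 had 36.9 ± 12.1 CPM (52 UMIs), n15-M/TC-1 had 31.9 ± 29.7 CPM from 90 cells (6 UMIs) and n16-M/TC-2 had 4.35 ± 10.7 from 116 cells (1 UMI). Granule cell clusters varied: n14-GC-7 had 23.6 ± 21.3 CPM (7 UMIs, from 0 to 56.4 over the libraries) and n07-GC-2 14.5 ± 9.29 (47 UMIs). In n11-GC-5 it was 7.98 ± 5.71 (30 UMIs) and in n12-GC-6 7.68 ± 6.46 (7 UMIs), near the 6.83 ± 5.18 of n01-OSNs. Lower still were n09-GC-3 (3.61), n10-GC-4 (2.87) and n03-GC-1 (2.57). Granule cells without EC list UMIs were not looked at apart. All endothelial cells together held 48.6 ± 5.65% of Pdgfb UMIs, neurons 20.5 ± 5.90% and microglia 18.3 ± 1.502%. Of the 306 neuronal UMIs, 102 lay in N11, and only 2 of these in cells without an EC list UMI.

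**Figure D2:**
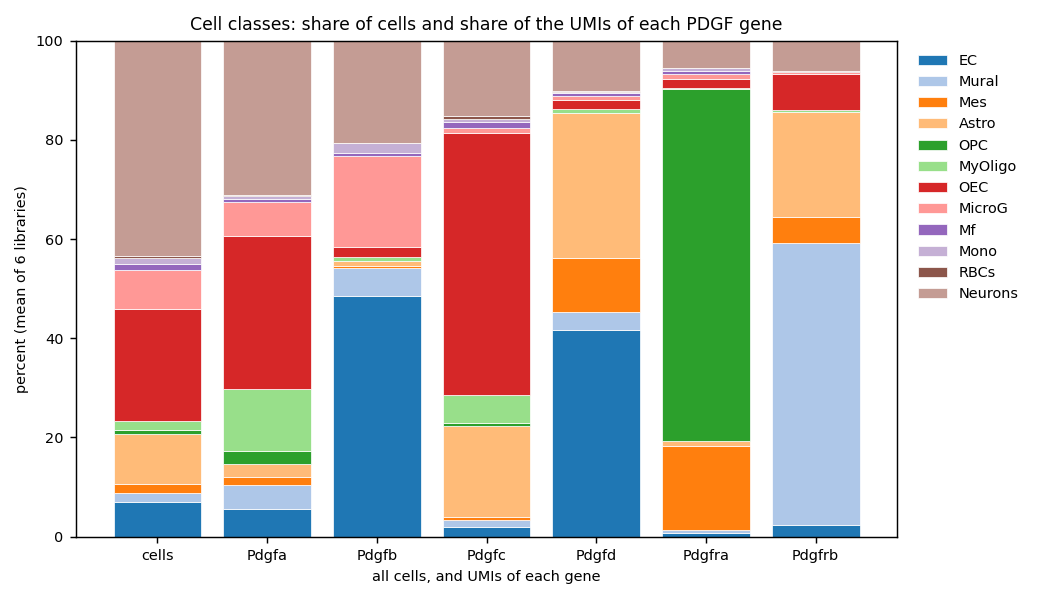
Stacked bars of the mean share over 6 libraries of all cells (left bar) and of the UMIs of each PDGF gene (other bars) held by each cell class, in percent. OPC cells, 0.769% of all cells, held 70.8% of Pdgfra UMIs, and mural cells, 1.80% of cells, held 56.8% of Pdgfrb UMIs.

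Pdgfc UMIs lay mostly in glia, above all in ensheathing cells, the glia that wrap the axons of olfactory sensory neurons. Astro2 had the highest mean, 50.8 ± 32.3 CPM, from only 30 UMIs (range 20.5 to 111 CPM), and did not differ from OEC1 at 50.3 ± 5.88 (range 43.4 to 59.1, 249 UMIs). OEC1 was above OEC5, the next cluster at 25.7 ± 11.3, in 6 of 6 libraries. Astro1 had 21.2 ± 1.16. Control libraries alone (46.5 CPM), or cells of at least 1000 UMIs alone (49.6 CPM), put OEC1 first. Ensheathing cells held 52.9 ± 3.24% of Pdgfc UMIs, astrocytes 18.3 ± 2.03% and neurons 15.3 ± 4.12%. A UMI was found in 10.5% of OEC1 cells (9.28 to 11.8%, median 2108 UMIs) and in 0.506% of MicroG1 cells (0.197 to 1.30%, median 2336 UMIs), 2.49% and 0.109% at 500 UMIs.

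Pdgfd was found in endothelial and mesenchymal clusters and in Astro1 of the astrocyte clusters. EC1 had 62.0 ± 7.60 CPM, the highest in 5 of 6 libraries, followed by Mes2 (47.2 ± 21.7), Mural1 (40.7 ± 24.5), Astro1 (34.4 ± 8.61), Mes1 (34.4 ± 10.6) and EC2 (27.8 ± 10.8). None of these neighbours differed beyond its spread, while EC2 lay above N11, the next, in 5 of 6 libraries. Mural2, unlike Mural1 with its endothelial markers, was at 4.26 ± 3.56 CPM from 5 UMIs. Mes2 was named a mesenchymal cluster, but its fibroblast list (1132 ± 265 CPM, against 5365 ± 719 in Mes1) lay below its astrocyte list (1402 ± 337) and its OEC list (2238 ± 980); the OEC list was 12904 ± 1754 CPM in Mes1. The Astro1 level persisted in cells with no EC list UMI (2296 cells, 31.4 ± 6.71 CPM). In Mes1 the 346 of 653 cells with no EC list UMI held 11 of the 49 Pdgfd UMIs, a level of 23.8 ± 19.3 CPM that ran from 0 to 58.5 over the libraries. A UMI was found in 10.5% of EC1 cells (9.36 to 11.8%), 5.88% of Astro1 cells (5.11 to 6.76%) and 0.127% of MicroG1 cells (0.0223 to 0.714%). Thinning to 500 UMIs gave 3.04%, 1.59% and 0.0464%. Of the other astrocyte clusters, Astro2 had a UMI in 0 of 336 cells (median 1859.5 UMIs). Astro3 had one in 0.955% of 1780 cells, 0.620% at 500 UMIs. Endothelial cells held 41.6 ± 6.98% of Pdgfd UMIs, astrocytes 29.2 ± 6.40% and mesenchymal cells 10.8 ± 3.47%.

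Of the receptors, Pdgfra was found mostly in OPC and mesenchymal cells. OPC had 772 ± 131 CPM, above Mes1 (147 ± 31.3) in 6 of 6 libraries; Mes1 was above Mes2 (31.0 ± 18.6) in 6 of 6, and Mes2 was above N7, the next, in 6 of 6, with only 4 UMIs in N7. In OPC the libraries gave 718 and 730 (control), 1000 and 653 (naris occluded) and 850 and 679 (olfactory trained), and the naris occluded pools gave both the highest and the lowest value. A UMI was found in 66.2% of 397 OPC cells (61.5 to 70.7%, median 2901 UMIs), 21.4% of 653 Mes1 cells (18.5 to 24.8%, median 1339) and 0.633% of MicroG1 cells (0.271 to 1.47%, median 2336), or 31.4%, 5.93% and 0.215% at 500 UMIs. OPC cells are known to lose the alpha receptor as they mature; MyOligo had 1.495 CPM.

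Pdgfra in Mes1 was as high in cells free of OPC markers. Mes1 had 306 Pdgfra UMIs per 100 UMIs of the OPC list, against 11.01 in OPC. In the 602 Mes1 cells without any OPC list UMI the level was 155 ± 31.4 CPM.

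Pdgfrb, on chromosome 18 (chr18:61045127-61085067), was the mural receptor. Mural2 had 1254 ± 103 CPM, from 1130 to 1372, and Mural1 668 ± 149, from 483 to 912, and the ranges did not overlap. Both were above Mes1 (110 ± 37.3) in 6 of 6 libraries, and Mes1 did not differ from Astro1 (100 ± 12.9). Mural2 and Mural1 had like ratios of Pdgfrb to the pericyte marker list, 6.29 and 6.14 per 100 UMIs. A UMI was found in 75.8% of Mural2 cells (72.7 to 78.7%), 83.5% of Mural1 cells (77.0 to 88.5%) and 0.127% of MicroG1 cells (0.0223 to 0.714%). At 500 UMIs the shares were 45.4%, 27.4% and 0.0309%, so that Mural1, with the higher raw share, was the lower after thinning.

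Astro1 carried Pdgfrb in cells without pericyte markers, while Astro3 carried less of it. Astro1 had 68.4 Pdgfrb UMIs per 100 pericyte list UMIs, and 2533 of its 3130 cells held no UMI of that list and still had 105 ± 13.95 CPM, between 89.9 and 130 over the libraries. In Astro2 (67.4 ± 35.0 CPM) the ratio was 88.7 per 100. A UMI was found in 16.9% of Astro1 cells (15.6 to 18.2%, median 1852 UMIs), 5.01% at 500 UMIs. In Astro3 the share was 1.40% of 1780 cells (median 708.5 UMIs), 0.886% at 500 UMIs. The Astro3 level ran from 9.13 to 35.0 CPM over the libraries. Mural cells held 56.8 ± 3.74% of Pdgfrb UMIs and astrocytes 21.1 ± 1.24%. In Mes1 the ratio was 6.60, near that of mural cells, and the level was 76.2 ± 45.2 CPM in the 234 cells free of the list, from 21 UMIs.

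**Figure D3:**
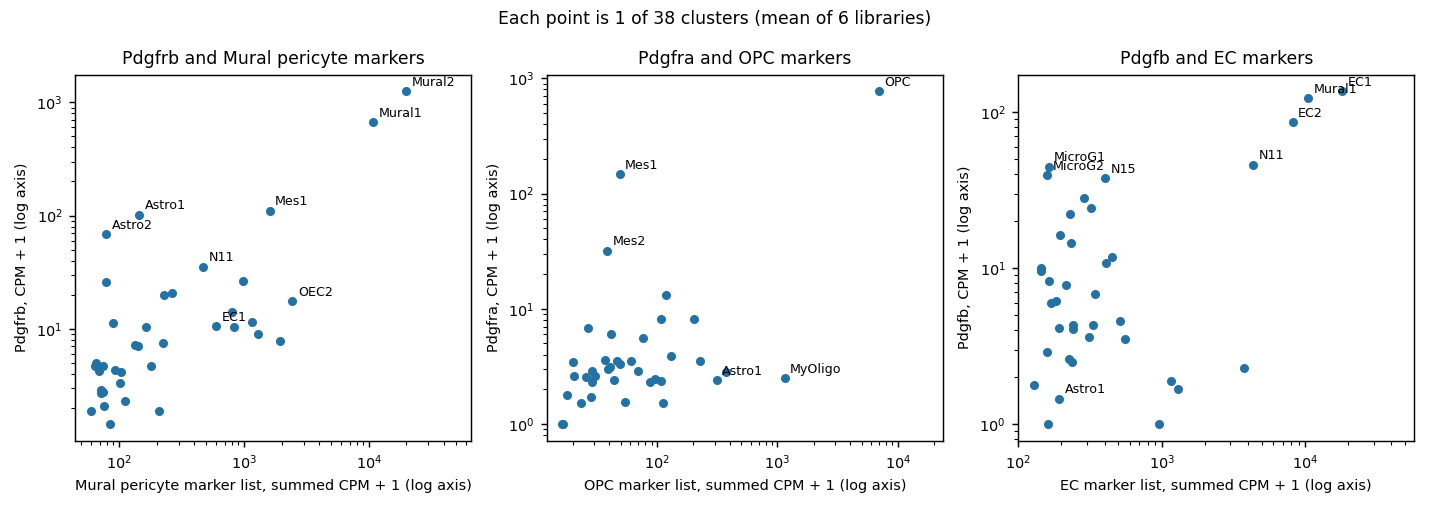
Level of Pdgfrb, Pdgfra and Pdgfb (CPM + 1, log axis) against the summed level of the pericyte, OPC and EC marker lists (CPM + 1, log axis), each point 1 of 38 clusters. Astro1 and Astro2 lie high on Pdgfrb at a low pericyte level, and Mes1 and Mes2 high on Pdgfra at a low OPC level. MicroG1 and MicroG2 lie high on Pdgfb at a low EC level. Mural1 lies near the endothelial clusters on Pdgfb, and N11 lies lower, at a higher EC level than MicroG1 and MicroG2.

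Some cells held UMIs of both a ligand and its receptor. In OPC, 28 of the 52 cells with a Pdgfa UMI also held Pdgfra (53.8%), against 66.2% of all OPC cells. In Mural1, 43 of the 55 cells with a Pdgfb UMI also held Pdgfrb (78.2%), against 83.5% of all Mural1 cells, and all of them held endothelial markers as well. In Astro1, 34 of the 184 cells with a Pdgfd UMI also held Pdgfrb (18.5%), against 16.9% of all Astro1 cells. The receptors were also found together: in Mes1, 45 cells held both, so that 32.1% of the Pdgfra cells held Pdgfrb, against 17.5% of all Mes1 cells, and 39.5% of the Pdgfrb cells held Pdgfra, against 21.4% of all. The cells with both were deeper (median 3476 UMIs against 1339). These shares depend on depth and were not tested.

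The genes most like each member were sought among 14253 genes, by Pearson's r of log2(mean CPM + 1) over 38 clusters, whose points share libraries and depth. For Pdgfrb they were RP24-136L4.6 (r = 0.87), Rarres2 (0.86), Sod3 (0.86), Ggt1 (0.85) and Lama2 (0.85), all highest in Mural2. Pdgfd was most like Wfdc1 (0.88), Fat4 (0.88), Kif1c (0.83), Vegfc (0.81) and Ephx1 (0.80), and Pdgfb most like Pik3r6 (0.83), St8sia6 (0.81), Eng (0.81), Acsl5 (0.80) and Grap (0.79). Pdgfra was most like Megf11 (0.80), Gm15222 (0.76), Tmem255b (0.73), Slc22a3 (0.72) and Bmp4 (0.70), Pdgfa most like Slc12a2 (0.81), Fam174a (0.78), Ippk (0.76), Pgrmc2 (0.75) and Endod1 (0.75), and Pdgfc most like Cmtm5 (0.79), Paqr6 (0.79), Dbi (0.78), Ttyh1 (0.77) and Prdx6 (0.77). Between members the highest value was 0.55, for Pdgfd and Pdgfrb, and the lowest -0.43, for Pdgfb and Pdgfc.

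The conditions were compared within clusters, which asks whether odour deprivation or training moved a PDGF gene in a sending or receiving cell type. Of the members, 51 pairs of gene and cluster had enough counts: 22 clusters for Pdgfa, 10 for Pdgfrb, 7 each for Pdgfb and Pdgfc, 3 for Pdgfd and 2 for Pdgfra. By edgeR's quasi-likelihood test with Benjamini-Hochberg adjustment over all genes of a cluster, 0 of 51 were called at 0.05 between naris occluded and control, where 0.0808% of all gene tests were called. There were 0 of 51 between olfactory trained and control (background 0.124%) and 1 of 51 between olfactory trained and naris occluded (background 0.536%). Before adjustment, 4, 5 and 6 of the 51 had p under 0.05 (7.84%, 9.80% and 11.8%, against 4.87%, 6.02% and 7.99% of all gene tests). DESeq2 called 0 in each contrast, with 1, 1 and 2 at p under 0.05 and with adjusted p-values of NA for 3, 10 and 9 pairs. With the replicate number as a block, edgeR called 1 pair between naris occluded and control, Pdgfb in N11. The 3 contrasts share libraries.

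In the clusters of their highest levels, no member was called in any contrast. Pdgfra in OPC had log2 fold changes of 0.13 (SE 0.19) in naris occluded and 0.08 (SE 0.19) in olfactory trained mice against control, and -0.06 (SE 0.19) between trained and occluded. Pdgfrb in Mural2 had -0.08, -0.06 and 0.02 (SE 0.18 each). For Pdgfb in EC1 the values were -0.04, 0.24 and 0.28 (SE 0.18 to 0.19), for Pdgfd in EC1 0.04, 0.25 and 0.22 (SE 0.22 to 0.23) and for Pdgfa in MyOligo 0.08, 0.12 and 0.04 (SE 0.17 to 0.18). Pdgfc in Astro2 had too few counts for a test, and in OEC1, chosen in its place after its level was seen, it had 0.08, 0.25 and 0.17 (SE 0.23 to 0.25). Adjusted p-values of these tests lay between 0.68 and 1.00.

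**Figure D4:**
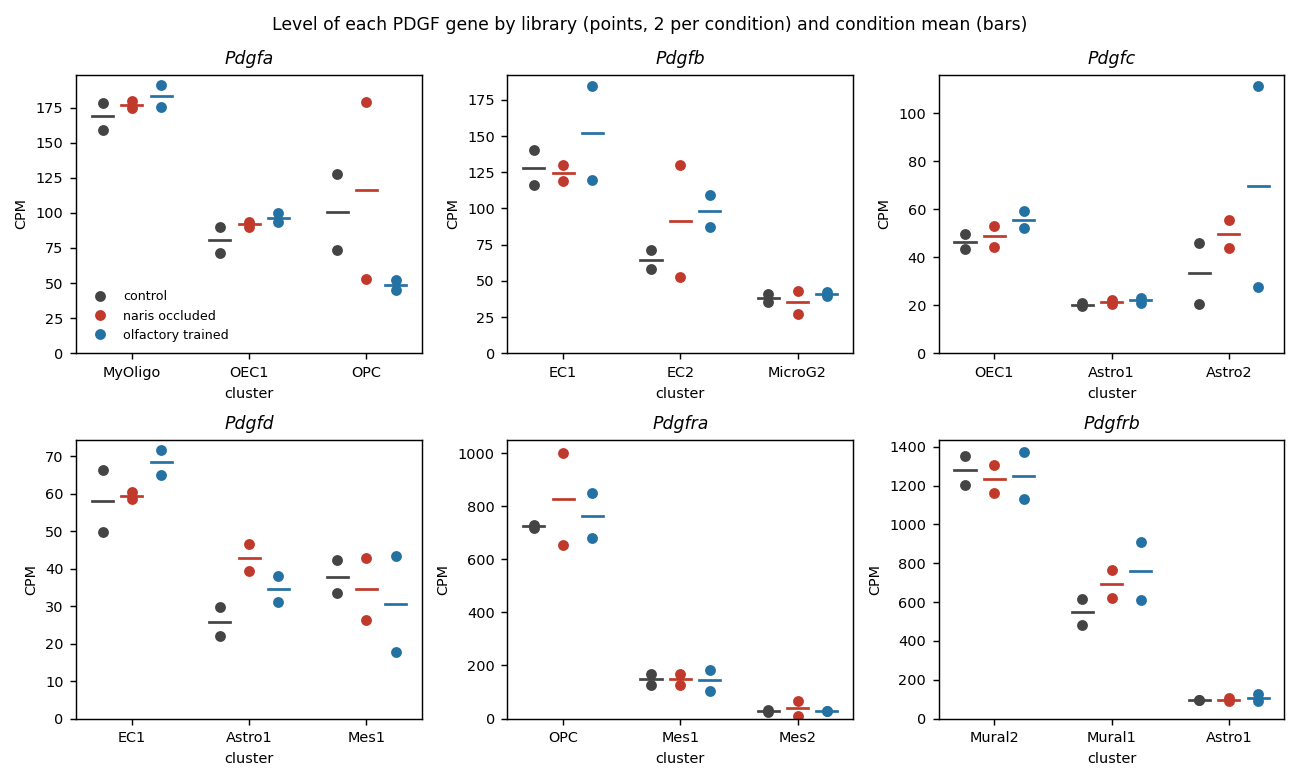
CPM of each PDGF gene in 3 clusters by library (points, 2 per condition) with condition means (short bars). Conditions overlap for Pdgfrb in Mural2 (1130 to 1372) and Pdgfra in OPC (653 to 1000), while Pdgfd in Astro1 is lower in both control libraries (22.0 and 29.7) than in the others.

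Among the members with an unadjusted p under 0.05, some stood apart by condition without passing the test; they were chosen after their values were seen. Pdgfd in Astro1 was 22.0 and 29.7 CPM in control, 39.4 and 46.5 in naris occluded and 37.99 and 31.1 in olfactory trained libraries (log2 fold change 0.75, SE 0.25, adjusted p = 0.911 for occluded against control). The control values lay below all others. Pdgfa in OEC5 was 29.0 and 24.8 CPM in control, 47.6 and 68.8 in naris occluded and 73.1 and 87.1 in olfactory trained libraries (1.51, SE 0.38, adjusted p = 0.123 for trained against control). Here the 3 conditions did not overlap. Pdgfa in OPC was 51.9 and 45.3 CPM in trained libraries and between 52.9 and 179 in the other 4 (-1.14, SE 0.46, adjusted p = 0.800 for trained against occluded). The highest value, naris occluded replicate 1, rested on 31 UMIs of which 15 lay in 1 cell, and was 97.7 CPM without that cell. Pdgfa in EC1 was 61.6 and 53.4 CPM in trained, 17.98 and 31.8 in occluded and 37.5 and 36.8 in control libraries (1.20, SE 0.30, adjusted p = 0.0810 for trained against occluded).

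The member that passed was Pdgfb in N11. Its level was 40.5 and 19.6 CPM in control, 87.6 and 74.5 in naris occluded and 31.5 and 15.8 in olfactory trained libraries, from 7 to 29 UMIs a library. The occluded values lay above all others. From occluded to trained it fell by 1.81 on the log2 scale (SE 0.37, adjusted p = 0.00148); in N11, 7.14% of all tested genes were called in that contrast and 4.04% were called lower, the members' count being 1 of 3. Without naris occluded replicate 1 the change was -1.67 with adjusted p = 0.0757, and over 11 alternatives the adjusted p ran from 9.25e-05 to that value, with 10 still called. DESeq2 gave its adjusted p as NA. Against control, Pdgfb in N11 had a log2 fold change of 1.36 in naris occluded mice (SE 0.37, adjusted p = 0.0906), which passed with the replicate number as a block (1.39, adjusted p = 0.0198), without control replicate 1 (2.01, adjusted p = 0.0377) and without olfactory trained replicate 1 (adjusted p = 0.0229) or 2 (adjusted p = 0.0179). In N11, 0.512% of all genes were called in that contrast, 0.186% called higher. Between trained and control libraries 0 of 3 members were called in N11, against 0.617% of all genes, or 0.454% lower.

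N11 was named a neuronal cluster but carried markers of several types. Its summed EC list was 4335 ± 1626 CPM, against 18042 ± 1427 in EC1, its interneuron list was 3232 ± 368 CPM and its OEC list 3738 ± 930. Of 951 cells, 660 are absent from the deposited second annotation of neurons. The EC list moved with Pdgfb: it was 4535 and 4319 CPM in control, 6996 and 4881 in naris occluded and 2811 and 2470 in olfactory trained libraries, with each of the 6 markers lower in both trained than in both occluded libraries. Of these markers, Cldn5 was also at 3630 ± 304 CPM in OEC1. The OEC list was 4130 and 3868, 4716 and 4484, and 2861 and 2371 CPM in the same order, and the pericyte list 421 and 297, 752 and 706, and 257 and 377 CPM. All 3 lists were highest in the occluded libraries. Per 100 EC list UMIs, Pdgfb had 0.892 and 0.454 UMIs in control, 1.25 and 1.53 in occluded and 1.12 and 0.640 in trained libraries. This ratio was not tested, and the EC list includes Cldn5, which OEC1 also carried. Of the 102 Pdgfb UMIs in N11, 100 lay in the 725 cells with an EC list UMI and 96 in the cells outside the second annotation. In the 226 cells with no EC list UMI, and in the 291 of the second annotation, Pdgfb had too few counts for a test. N11 made up 1.65% and 2.17% of cells in control, 1.45% and 1.45% in occluded and 1.76% and 2.89% in trained libraries. The part of endothelial, ensheathing or pericyte RNA in this result was not tested.

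**Figure D5:**
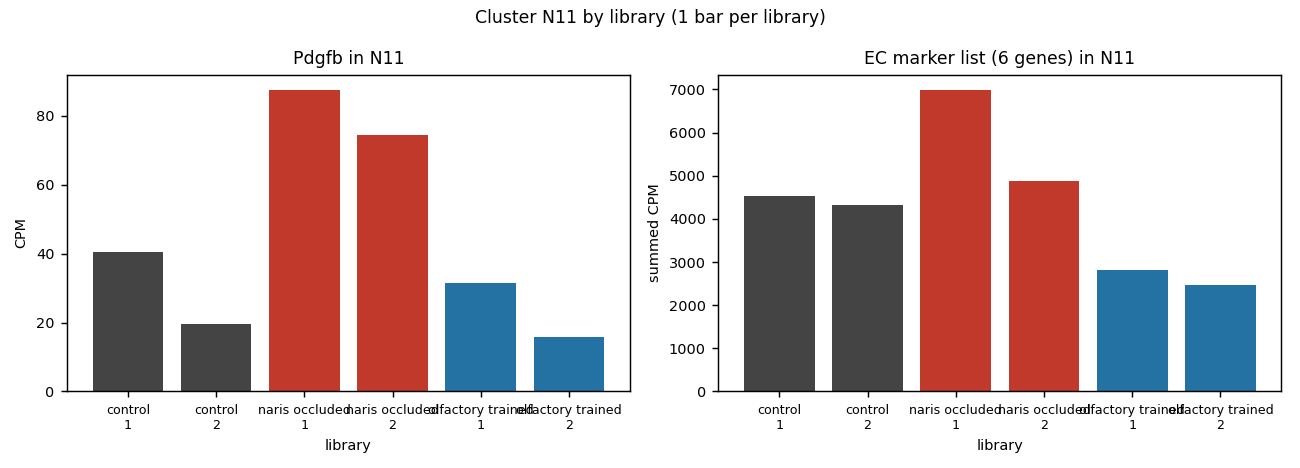
Pdgfb (left, CPM) and the summed EC marker list (right, CPM) in cluster N11, 1 bar per library and no error bars. Both are highest in the naris occluded libraries (Pdgfb 87.6 and 74.5, EC list 6996 and 4881) and both EC values are lowest in the olfactory trained libraries (2811 and 2470).

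No difference in response was called between pairs of clusters that share a name. Of these clusters, Mes1, Mes2 and Mural1 also carried markers of other types as given above. The difference in the occlusion effect was 0.60 (SE 0.40, EC2 minus EC1, log2 scale) for Pdgfb, -0.37 (SE 0.26, Mural2 minus Mural1) for Pdgfrb, 0.17 (SE 0.81, Mes2 minus Mes1) for Pdgfra and -0.66 (SE 1.19, Astro2 minus Astro1) for Pdgfa. For training the values were 0.41 (SE 0.42), -0.44 (SE 0.27), 0.08 (SE 0.92) and 1.03 (SE 1.14). None of these 8 passed edgeR's test (adjusted p 0.996 or higher, 4 for each contrast, 0 with an unadjusted p under 0.05). Of all genes, 0% were called in the EC and mural fits, 0% (occlusion) and 0.199% (training) in the mesenchymal fit and 0.0357% and 0.0119% in the astrocyte fit.

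Over all cells summed, no member was called in any contrast, where 0.0064%, 0.0064% and 0.505% of genes were called. The log2 fold changes lay between -0.13 (Pdgfrb, olfactory trained against control, SE 0.13, adjusted p = 0.814) and 0.26 (Pdgfb, trained against occluded, SE 0.15, adjusted p = 0.452), and none had an unadjusted p under 0.05. Pdgfra was 15.0 ± 1.11 CPM over the 6 libraries, Pdgfrb 37.8 ± 4.03, Pdgfa 48.4 ± 2.81, Pdgfb 17.2 ± 2.16, Pdgfc 11.6 ± 0.870 and Pdgfd 9.00 ± 1.29. In such sums fewer cells of a type and less RNA per cell cannot be told apart.

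The numbers of some sending cells, relative to all cells of a library, were called lower in olfactory trained than in naris occluded mice. From naris occluded to olfactory trained mice, MyOligo cells fell by 0.82 on the log2 scale (SE 0.28, adjusted p = 0.0384), OEC1 cells by 0.85 (SE 0.28) and Astro2 cells by 1.04 (SE 0.35), both with the same adjusted p by edgeR over the 38 clusters, of which 21.1% were called. MyOligo was 1.85% and 2.45% of cells in occluded, 1.05% and 1.40% in trained and 1.67% and 1.65% in control libraries, with no overlap between the conditions. OPC (0.04, SE 0.31), Mural2 (-0.15, SE 0.29) and EC1 (-0.01, SE 0.26) were not called. None of these 6 clusters was called against control, where 2.63% (occluded, N7 alone) and 0% (trained) of clusters were. With the replicate number as a block, 13, 3 and 2 of 38 clusters were called in these contrasts in place of 8, 1 and 0. Among cells of at least 1000 UMIs none of the 8 calls remained. Fewer than 8 clusters were called between trained and occluded with TMM factors on cell numbers or with DESeq2, as given below. Shares of dissociated cells depend on how well each type survives dissociation.

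The other genes of the pathway were followed as 62 genes in 5 groups over the 5 clusters in which a member was highest (MyOligo, EC1, Astro2, OPC and Mural2), where 50 of the 62 had enough counts in at least 1 of these clusters, giving 161 gene and cluster pairs. No pair was called between naris occluded and control (background in these clusters 0.0498%, median log2 fold change -0.05). Between olfactory trained and control 2 were called higher and 1 lower (background 0.153%, median 0.07), and between trained and occluded 2 were called higher and 0 lower (background 0.196%, median 0.16). Before adjustment, 14, 14 and 20 of the 161 pairs had p under 0.05 in these contrasts. Over all single clusters 4.87%, 6.02% and 7.99% of gene tests had such a p, in the same order. By group, proteases and their partners had 1 of 8 pairs called in each of the last contrasts, negative regulators 1 of 35 in each, co-receptors and receptor partners 1 of 19 against control, and adaptors (87 pairs) and ligand binding proteins (12 pairs) none.

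All calls were in EC1, where 0.335% of genes were called between trained and control, 0.404% between trained and occluded and 0.0231% between occluded and control. EC1 held little receptor RNA: a Pdgfrb UMI was found in 1.66% of its cells and a Pdgfra UMI in 0.277%. For Pdgfc the share was 0.515%. Whether these calls have to do with PDGF signalling was not tested. Plat, tissue plasminogen activator, was 211 and 225 CPM in control, 252 and 306 in naris occluded and 520 and 435 in olfactory trained libraries. The trained values lay above all others. Plat rose by 1.15 (SE 0.16, adjusted p = 8.06e-04) against control and by 0.80 (SE 0.16, adjusted p = 0.0180) against occluded, by edgeR. Without control replicate 1 the adjusted p was 0.0582 against control; against occluded it was 0.277 without naris occluded replicate 1, 0.0802 without naris occluded replicate 2 and 0.0667 without olfactory trained replicate 1. Plat was also carried by other cells, with its highest mean in OEC4 (525 ± 50.8 CPM).

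Dusp6, a phosphatase that ERK signalling induces and that restrains it, was 92.8 and 96.1 CPM in control, 68.6 and 64.9 in occluded and 165 and 145 in trained libraries. The 3 conditions did not overlap. Dusp6 rose by 1.25 (SE 0.18, adjusted p = 7.20e-04) from occluded to trained, with adjusted p = 0.0639 without naris occluded replicate 2. Against control it rose by 0.75 (SE 0.16, adjusted p = 0.0446), a call that 7 of 12 alternatives lost, 5 of them the fits without control replicate 1 or 2, naris occluded replicate 1 or 2, or olfactory trained replicate 1 (adjusted p 0.0706 to 0.467). Nrp1, neuropilin 1, a co-receptor of several growth factors, was 334 and 297 CPM in control, 216 and 200 in occluded and 188 and 200 in trained libraries. Nrp1 fell by 0.68 on the log2 scale against control (SE 0.15, adjusted p = 0.0446), a call that 8 of 13 alternatives lost, among them the fits without those same 5 libraries (adjusted p 0.0636 to 0.528). Over the 6 libraries of EC1 the EC list ran from 16119 to 19690 CPM, the pericyte list from 548 to 665 CPM and the median mitochondrial share from 7.44% to 9.47%; the last was highest in olfactory trained replicate 1.

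The levels of a few pathway genes, chosen after their values were seen, are given beside the receptors. Cspg4 (NG2), a proteoglycan of OPC and pericytes that can bind PDGF-A, was 334 ± 46.9 CPM in Mural2 and 254 ± 27.3 in OPC. Lrp1, a receptor partner of the beta receptor, was highest in OPC (369 ± 51.6) and Mes1 (301 ± 48.6), Fyn, a Src family kinase, in OPC (894 ± 245), and the inhibitors Spry1 (67.3 ± 17.9) and Spry4 (46.3 ± 16.9) also in OPC, each followed by Mural2 (49.8 ± 13.4 and 32.9 ± 9.17). The related inhibitor Spry2 was instead highest in Astro1 (412 ± 50.3) and OEC1 (267 ± 23.4), with 197 ± 56.6 in OPC and 168 ± 43.3 in Mural2. Cspg4 is also one of the OPC markers used here. Of the other activating proteases, Plau (urokinase) was at most 25.5 ± 13.7 CPM (Mf) and St14 (matriptase) at most 9.69 ± 2.79 CPM (MicroG2).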

How the data were processed

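Olfactory bulbs were dissociated and single cells were captured on the 10x Chromium platform (3′ v2 chemistry), which reads tags at the 3′ end of transcripts, so levels were not scaled for gene length and no level was tested between genes. Per the processing notes of the submitters and the study's methods, reads were processed in Cell Ranger 2.0.0 against mm10 and analysed in Seurat 2.2.1, cells with at least 200 genes were kept, and doublets were removed, at a step not given in the sources used here; no doublet caller was run here. The deposited table holds raw UMI counts per gene and barcode, which the authors had merged over libraries but not normalized. The mitochondrial share of each cell is a fraction in the annotation that the authors deposited. A log-normalized table was not used here.

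Clusters and libraries came from the deposited annotation (51426 of 52549 barcodes). The cell names of the 2 olfactory trained libraries start with each other's number; the annotation's library was used, which leaves the condition unaffected. Counts were summed per library and cluster and tested with edgeR 4.0.16 (R 4.3.3; quasi-likelihood, TMM, filterByExpr, all 6 libraries in a fit, at least 10 cells in every library, Benjamini-Hochberg adjusted p under 0.05 over all genes of a cluster and contrast). Cell numbers were tested with the library's cells as its total. The test code was tested on simulated data. DESeq2 1.42.0 (Wald test), other size factors, no filter, deeper cells, merged clusters, a replicate block and leaving out each library were alternatives. Same-numbered libraries, which share the sex of the pool, deviated together over all cells summed (correlations 0.402, 0.357 and 0.29), so the numbers were taken to pair the samples. Within single clusters the correlations were 0.0532 to 0.158. The main tests did not use this pairing, which entered only as the replicate block among the alternatives. Wilson intervals were at 95%, and the limit for a count of 0 was 3 cells.

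The members, marker lists and pathway lists were chosen with earlier results of these data known. Named were the members, in the cluster of their highest mean CPM and wherever called, the 5 genes most like each (among genes of at least 10 CPM in a cluster), and every called pathway gene. Promoter sequences are RefSeq's, build GRCm38.p6.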

Additional observations from a re-analysis of the deposited data

Results flagged for a closer look

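The 1123 barcodes that the deposited annotation puts in no cluster were left out of all comparisons. They held 3019633 UMIs, with a median of 2327 per barcode, and all 6 PDGF genes were found in them above the limit that a count of 0 allows. Pdgfa had 135 UMIs there (44.7 CPM, against 48.2 in all annotated cells), Pdgfb 52 (17.2 against 17.1), Pdgfc 44 (14.6 against 11.5) and Pdgfd 36 (11.9 against 8.94). Pdgfrb had 75 UMIs (24.8 against 37.6 CPM). Pdgfra had 9 UMIs in 4 barcodes (2.98 against 15.0 CPM). These sums have no replicate error and were not tested.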

How the results depend on the processing

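Of 323 log2 fold changes under alternatives, 272 kept direction and side of the threshold, 21 lost and 4 gained a call and 26 changed sign, of which 25 belong to home clusters or OEC1 with no call. The Pdgfa level in MyOligo was 165 CPM as a mean over cells and 192 CPM without mitochondrial counts, and that of Pdgfrb in Mural2 was 1394 CPM without them. With cells of at least 1000 UMIs neurons held 25.2% of Pdgfa UMIs. Called PDGF pairs between olfactory trained and naris occluded were 2 with no filter, 0 with DESeq2 and 2 with the trained libraries renumbered in the block; leaving out 1 library gave 0 to 2 in that contrast and 0 to 1 in each contrast with control. The replicate block gave 1 called PDGF pair for occluded against control (Pdgfb in N11), changed cell number counts to 3, 2 and 13, and changed no other call. Pathway calls against control in trained mice were 1 with DESeq2, 1 with deeper cells and 1 with merged clusters; leaving out 1 library gave 0 to 7, and 0 to 6 against occluded and 0 to 1 for occluded against control, the highest values both being without olfactory trained replicate 2. Clusters with called cell numbers (trained against occluded) were 2 with TMM, 4 with DESeq2 and 0 with deeper cells, and 0 for occluded against control with deeper cells; leaving out 1 library gave 2 to 11, and 0 to 4 (occluded) and 0 to 2 (trained) against control. The cause was not tested.

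For occluded against control, Pdgfb in EC1 became 3.07e-04 with deeper cells and 0.036 with merged clusters, Pdgfd in EC1 became -0.067 and Pdgfc in OEC1 -0.064 with merged clusters. Pdgfrb in Mural2 became 0.035 with deeper cells for trained against control. Leaving out 1 library gave, for occluded against control, -0.017 to 0.17 for Pdgfa in MyOligo, -0.17 to 0.10 for Pdgfb and -0.17 to 0.25 for Pdgfd in EC1, -0.17 to 0.38 for Pdgfra in OPC, -0.19 to 0.018 for Pdgfrb in Mural2 and -0.046 to 0.19 for Pdgfc in OEC1. For trained against control it gave -0.056 to 0.52 for Pdgfb in EC1, -0.12 to 0.26 for Pdgfra in OPC, -0.20 to 0.059 for Pdgfrb in Mural2 and -1.03 to 0.22 for Pdgfb in N11. For trained against occluded it gave -0.026 to 0.11 for Pdgfa in MyOligo, -0.012 to 0.57 for Pdgfb in EC1, -0.31 to 0.25 for Pdgfra in OPC and -0.12 to 0.14 for Pdgfrb in Mural2. Fits on N11 cells without EC list UMIs, or of the second annotation, were added after seeing the data and gave no value for Pdgfb, whose counts there were under the filter. The added levels without marker list cells, of Pdgfrb in Astro1 and Pdgfra in Mes1, moved by less than the spread. With 2 libraries a condition and 7 to 29 Pdgfb UMIs a library in N11, small changes may have been missed. The size of change detectable at these counts was not measured.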
